A study of Mus musculus with 4 samples.

Results

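Il1rl1, Ptx3, Slpi, Adam8, Alox5ap, Anxa8 and Wfdc18, grouped here as inflammatory and wound genes, were followed across 4 mouse RNA samples. They are 7 of 30419 named genes and are read by 10 of the 39365 probes that gave a value on every array. The genes were chosen by their measured values, as low in the transfected tissue against stem cells or in ligament against stem cells, so their values in those comparisons describe the choice and support nothing further. Wfdc18 carries the older symbol Expi in the files and was matched through its RefSeq transcript. The other 6 carry the symbols used here in the files.

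The stem cells were mesenchymal stem cells of the C3H background, taken from mouse embryos and obtained from a cell bank. The ligament-like tissue, called the transfected tissue here, came from C3H stem cells transfected with the mouse gene A, which the labels do not identify further, carried in pCAGGS, a plasmid whose promoter is active in most cell types. Wild type ligament and ligament of mice transgenic for A, made by introducing the same plasmid into fertilised eggs, were both of the C57BL/6J background. The labels give no age and no number of animals or cultures behind a sample, and no empty-vector or untransfected cultured tissue was analysed here. Gene A is not named, so its level could not be used to check the labels. Strain, cell culture and tissue differ together between cells and ligament, and their parts cannot be told apart.

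RNA was labelled with Cy3 and hybridised to Agilent whole mouse genome arrays, 1 array per group, so no value has a replicate and no difference has a test. Levels are log2 signal minus the 75th percentile of that array, called the normalised signal, so that 0 is the 75th percentile. That percentile was between 286.3 and 2260.0 signal units, and the scanner software marked 49.0% to 56.3% of an array's spots as well above background. A gene is called higher or lower in a comparison when it differed at least 2-fold. Where a gene lacked that mark on the dimmer array, its fold is written as at least N-fold, taken against the lowest signal that array could mark or the gene's own signal there, whichever was higher. Among probes with 10 spots per array, the spot noise of a difference between 2 arrays was between 0.12 and 0.21 on the log2 scale. For the probes of the 7 genes that were well above background, the scanner software's own error was 10.0% to 19.6% of the signal. Both are noise within an array only and leave out the spread between animals or cultures.

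The labelled tissues were set against their defining markers. All 10 tendon and ligament markers were well above background in stem cells and in transgenic ligament, and 9 of 10 in the transfected tissue and in wild type ligament. Scx, the transcription factor that marks tendon and ligament cells, was at 0.56 in stem cells against -1.17 in the transfected tissue, and 2.02 in wild type against 3.10 in transgenic ligament. Thbs4, a thrombospondin of tendon matrix, was not well above background in the transfected tissue and was dim in stem cells, at -4.96. Dcn, from the same list, went the other way, from 3.7 in stem cells to 6.47 in the transfected tissue. Of the 10 markers, 1 (Dcn) was higher and 2 (Scx and Col1a1) were lower in the transfected tissue than in stem cells. Their median log2 difference was -0.23, beside -0.07 over all genes. Both ligaments also held blood cell and epidermal RNA. The neutrophil genes S100a8 and S100a9 were at 7.99 and 9.38 in wild type ligament and at 5.60 and 8.34 in transgenic ligament, and neither was well above background in stem cells or the transfected tissue.

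As background, several of these genes act in inflammation or in the response to injury. Il1rl1 encodes ST2, the receptor of the alarmin interleukin 33, as a membrane form that signals and a short secreted form that binds the ligand away from cells. Ptx3 is a secreted pentraxin that recognises microbes and helps to build hyaluronan matrix. Slpi is a secreted inhibitor of neutrophil elastase with whey acidic protein (WAP) domains, and Wfdc18 is another small secreted protein of the WAP family. Adam8 is a membrane metalloprotease of leukocytes and activated cells, Alox5ap helps 5-lipoxygenase to begin leukotriene synthesis, and Anxa8 is a calcium-dependent membrane-binding protein known from stratified epithelia.

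Il1rl1 was read by 3 probes and Anxa8 by 2, and the start of each of these probes is shown because the Il1rl1 probes separate transcript forms and disagree, whereas the Anxa8 probes run together. The first 30 bases are given 5′ to 3′ in lower case, as the scanner files list them. In the mm9 build, per the file headers, the Il1rl1 probes lie on the plus strand at chr1:40504769-40504828 (variant 2, the secreted form), chr1:40520014-40520073 (variant 1, the membrane form, upstream) and chr1:40522187-40522246 (variant 1, downstream). Their starts are 15245 and 2173 bases apart. The Anxa8 probes lie on the plus strand at chr14:34913661-34913720 (repeated in 10 spots) and chr14:34913148-34913207. No mm9 annotation was used here, so exon or UTR positions are not given.
Il1rl1 variant 2: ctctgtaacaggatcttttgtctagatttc
Il1rl1 variant 1, upstream: ccttacccaaattgccattacagtcgagca
Il1rl1 variant 1, downstream: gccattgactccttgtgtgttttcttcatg
Anxa8, repeated: atcctctgatcgtggtctccgagcctgaag
Anxa8, second: gtataccgcccaccctagcattacctctga

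Stem cells held the receptor gene Il1rl1 near the 75th percentile, and the transfected tissue held it far below. The downstream variant 1 probe, which stands for the gene here because its mean over the 4 arrays is the highest of the 3, read 0.04 in stem cells against -4.94 in the transfected tissue, and -1.51 in wild type against -1.48 in transgenic ligament. It was well above background on all 4 arrays, highest in stem cells, lowest in the transfected tissue and nearly the same in both ligaments. The secreted-form probe read 0.54 in stem cells and -4.62 in the transfected tissue, and its readings of -5.74 in wild type and -6.21 in transgenic ligament were not well above background. Both informative probes were therefore lower in the transfected tissue than in stem cells, by 31.5-fold for variant 1 and 35.6-fold for the secreted form.

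The Il1rl1 probes parted in ligament. Against stem cells, the downstream variant 1 probe was 2.92-fold lower in wild type and 2.86-fold lower in transgenic ligament. The secreted-form probe was at least 15.5-fold and at least 21.7-fold lower. The upstream variant 1 probe was well above background only in stem cells, at -5.31, and gave no fold past 2 in the transfected tissue. As the downstream probe read 0.04 in stem cells, the 2 probes of variant 1 disagree, and variant 1 in ligament rests on 1 probe. Averaging the 3 probes gives a log2 difference of -4.21 in place of -4.98 between the transfected tissue and stem cells, and of -1.54 in place of -3.43 between the transfected tissue and wild type ligament. It also gives -2.66 in place of -1.55 in wild type and -2.98 in place of -1.52 in transgenic ligament against stem cells. Normexp background correction gives -4.01 between the transfected tissue and stem cells.

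**Figure D1:**
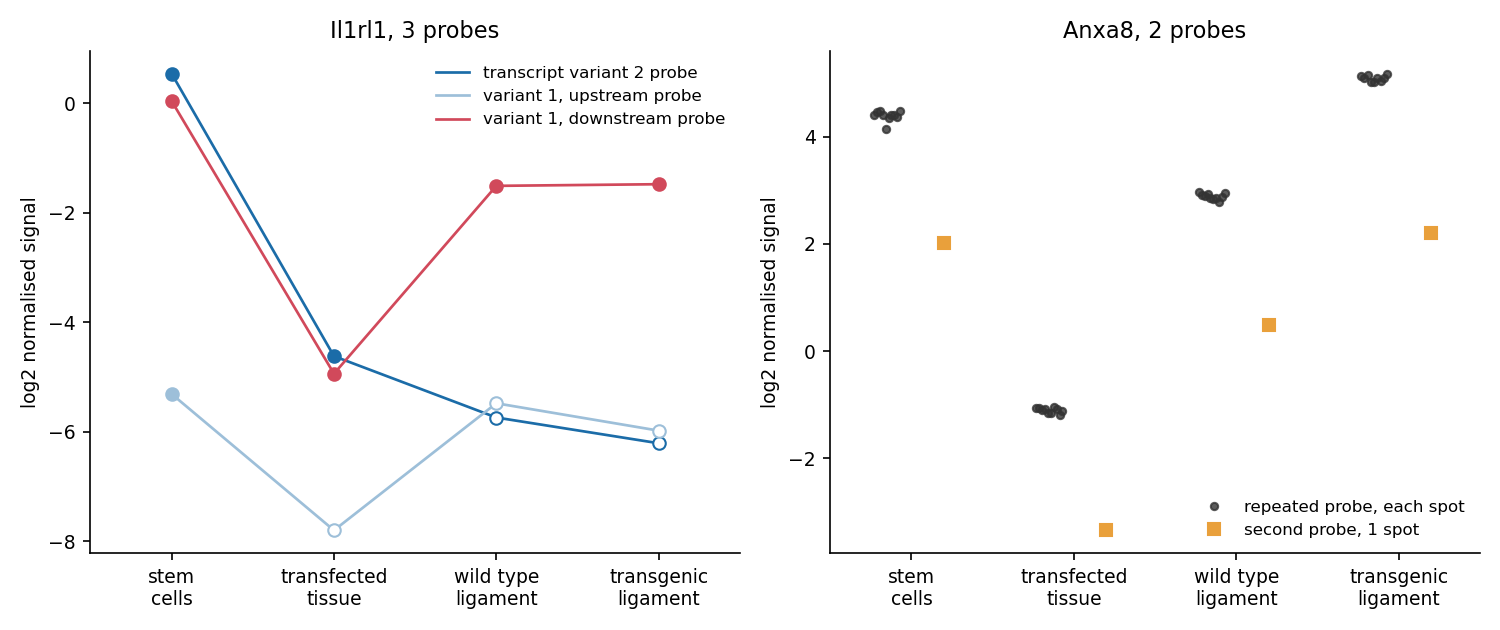
Log2 normalised signal of the 3 Il1rl1 probes and the 2 Anxa8 probes on the 4 arrays, with filled points well above background, open points not, and single spots of the repeated Anxa8 probe as small dots; lines join 1 probe's values and mark no time course. The secreted-form Il1rl1 probe drops from 0.54 in stem cells to readings not well above background in both ligaments while the downstream variant 1 probe stays at -1.51 and -1.48, and the 2 Anxa8 probes keep the same order of arrays.

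The interleukin 1 family was described from a list of 19 genes. Il33, the ligand of ST2, read -4.05 in stem cells, was not well above background in the transfected tissue (at least 3.15-fold lower), and read -0.67 in wild type and -0.31 in transgenic ligament. Ligand and receptor therefore ran in different orders: Il33 was 10.4-fold higher in wild type ligament than in stem cells, where Il1rl1 was 2.92-fold lower. Il1rap, the co-receptor, and Myd88, the adaptor of the receptor complex, differed between the transfected tissue and stem cells by 0.56 and -0.40. Of 14 list genes with a value there, 0 were higher and 4 lower (median -0.12). Over all genes the median was -0.07, with 11.1% higher and 13.0% lower. The other lower genes were Sigirr, an inhibitory receptor of the family, at least 14.4-fold, Il1rn, the interleukin 1 receptor antagonist, 8.63-fold, and Il18rap, at least 2.95-fold.

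Il1rl1 lies in a cluster of receptor genes on chromosome 1, whose order was taken from RefSeq (GRCm38.p6). Il1r1, the signalling interleukin 1 receptor, read 1.16 in stem cells against 1.28 in the transfected tissue, and -3.01 in wild type against -1.52 in transgenic ligament. Its value hardly differed between stem cells and the transfected tissue, where Il1rl1 differed 31.5-fold. Il1r2, the decoy receptor, was well above background only in the ligaments, at -1.36 and -1.04, and the adjacent Il1rl2 and Il18r1 were not well above background on any array.

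Ptx3 was the gene with the widest range. Its probe lies at chr3:66029245-66029304 (mm9, plus strand) and read 5.53 in stem cells, 3.57 in the transfected tissue and only -2.41 in wild type ligament. In transgenic ligament it read -4.01 and was not well above background. Both cell-derived samples were thus high and both ligaments low. Ptx3 was 3.88-fold lower in the transfected tissue than in stem cells, 245-fold lower in wild type ligament and at least 688-fold lower in transgenic ligament. Among 13436 genes measured on both arrays, its difference between wild type ligament and stem cells was the lowest. These values depend on the background: with normexp correction the log2 differences from stem cells became -6.85 in place of -7.94 in wild type ligament and -7.49 in place of -9.43 in transgenic ligament.

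Other pentraxins and genes that work with Ptx3 in matrix and complement made a list of 18, of which 17 were on the array. Between the transfected tissue and stem cells, 7 had a value, of which 1 was higher and 2 lower (median -0.38). The shares over all genes were 11.1% and 13.0%. Has2, a hyaluronan synthase, was 11.7-fold lower, from 0.57 to -2.98, and C1qa, a complement chain, at least 6.28-fold lower. Itih4, an inter-alpha-trypsin inhibitor heavy chain, was at least 88.3-fold higher. Tnfaip6 (TSG-6), which joins heavy chains to hyaluronan, differed by -0.38. Has2 was also lower in ligament than in stem cells, at least 15.9-fold in wild type and at least 22.2-fold in transgenic ligament.

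The WAP protein genes Slpi and Wfdc18 were both highest in stem cells and lowest in transgenic ligament. The Slpi probe (chr2:164179849-164179908, mm9, minus strand) read 4.65 in stem cells against 1.26 in the transfected tissue, and 2.60 in wild type against -0.17 in transgenic ligament. The Wfdc18 probe (chr11:83524751-83524810, mm9, plus strand) read 2.37 in stem cells against -0.45 in the transfected tissue, and -0.30 in wild type against -3.47 in transgenic ligament. Both genes were well above background on all 4 arrays. Against stem cells, Slpi was 10.5-fold lower in the transfected tissue, 4.13-fold lower in wild type and 28.2-fold lower in transgenic ligament, and Wfdc18 was 7.04-fold, 6.34-fold and 57.1-fold lower. Normexp correction gave a log2 difference of -4.30 in place of -5.84 for the last of these. Wfdc18 in the transfected tissue and in wild type ligament differed by only -0.15, close to the spot noise of 0.12.

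Other WAP genes were mixed. Of 20 listed genes, 8 had a value between the transfected tissue and stem cells, of which 2 were higher and 3 lower (median -0.68). The shares over all genes were 11.1% and 13.0%. Wfdc3 was 11.2-fold and Wfdc16 at least 8.35-fold higher, and Wfdc12 was 9.03-fold lower. Wfdc1 and Wfdc2 were not well above background on either array. The genes that flank Wfdc18 on chromosome 11 were higher in both ligaments than in the cell-derived samples, where Wfdc18 was highest in stem cells. Wfdc17 was not well above background in stem cells or the transfected tissue and read 1.34 in wild type and 0.55 in transgenic ligament, and Wfdc21 read -4.59, -5.67, 4.24 and 3.49 in the order of stem cells, transfected tissue, wild type and transgenic ligament. Elane, the neutrophil elastase that Slpi inhibits, read -1.41 in stem cells and -1.35 in the transfected tissue, and 1.85 and 0.46 in wild type and transgenic ligament.

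Adam8 had its low values in the transfected tissue and in transgenic ligament. Its probe (chr7:147164873-147164932, mm9, minus strand) read 1.48 in stem cells against -2.46 in the transfected tissue, and 0.22 in wild type against -2.07 in transgenic ligament, all well above background. It was 15.3-fold lower in the transfected tissue than in stem cells, 2.38-fold lower in wild type and 11.7-fold lower in transgenic ligament, where normexp correction gave -2.88 in place of -3.55. Among 12 other listed genes of the ADAM family, 9 had a value between the transfected tissue and stem cells. Of these, 0 were higher and 1 lower, near the shares over all genes of 11.1% and 13.0%. The lower gene was Adam12, a protease of mesenchymal and muscle precursor cells, 5.90-fold lower, and Adam9, a widely expressed member, differed by -0.25.

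Alox5ap was the member that stood higher in ligament than in stem cells. Its probe (chr5:150099347-150099406, mm9, plus strand) read -1.43 in stem cells against -4.61 in the transfected tissue, and 2.43 in wild type against 0.20 in transgenic ligament. It was 9.06-fold lower in the transfected tissue than in stem cells, and 14.5-fold and 3.11-fold higher in wild type and transgenic ligament. The enzyme that it serves, Alox5, was not well above background in stem cells or in the transfected tissue and read 0.38 in wild type and -1.11 in transgenic ligament. Ltc4s and Lta4h, which make leukotriene C4 and leukotriene B4, differed by -1.01 and -0.29 between the transfected tissue and stem cells, and by 2.47 and 0.37 between wild type ligament and stem cells.

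Over the leukotriene and prostaglandin list of 23 genes, 14 had a value between the transfected tissue and stem cells. Of these, 2 were higher and 3 lower (median -0.05), beside 11.1% and 13.0% over all genes. Ptgds, a prostaglandin D synthase, was 12.9-fold and Mgst1, a microsomal glutathione transferase, 4.50-fold higher. Ptgis, the prostacyclin synthase, was 2.81-fold and Ltb4r2, a leukotriene B4 receptor, at least 2.12-fold lower. In wild type ligament against stem cells the same list had 15 genes higher and 4 lower of 21, with a median of 2.04. Over all genes, 33.7% were higher and 21.8% lower in that comparison.

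Anxa8 was measured best, by 10 spots of the repeated probe on each array (9 in transgenic ligament). It read 4.39 ± 0.10 in stem cells against -1.10 ± 0.05 in the transfected tissue, and 2.89 ± 0.06 in wild type against 5.09 ± 0.06 in transgenic ligament, where the error is the SD over spots of 1 array. Single spots ran from 4.14 to 4.49 in stem cells and from -1.19 to -1.05 in the transfected tissue. The spots of an array share 1 RNA sample, so they give no spread between cultures or animals. The second probe read 2.01, -3.34, 0.48 and 2.21 in the same order. The transfected tissue was the lowest on both probes, 45.0-fold and 40.9-fold below stem cells, and transgenic ligament the highest. Among 15803 genes measured on both arrays, Anxa8 had the lowest difference between the transfected tissue and stem cells.

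Most other annexins were within 2-fold in the same comparison. Of 15 annexins and S100 partners, 14 had a value between the transfected tissue and stem cells. Of these, 0 were higher and 3 lower (median -0.28), beside 11.1% and 13.0% over all genes. Anxa13 was at least 6.72-fold, S100a6 2.41-fold and Anxa2 2.08-fold lower, and Anxa1, an anti-inflammatory annexin, differed by -0.73. In wild type ligament 9 of 14 were lower than in stem cells and 1 was higher, with Anxa2 11.3-fold lower. Over all genes, 21.8% were lower and 33.7% higher in that comparison.

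**Figure D2:**
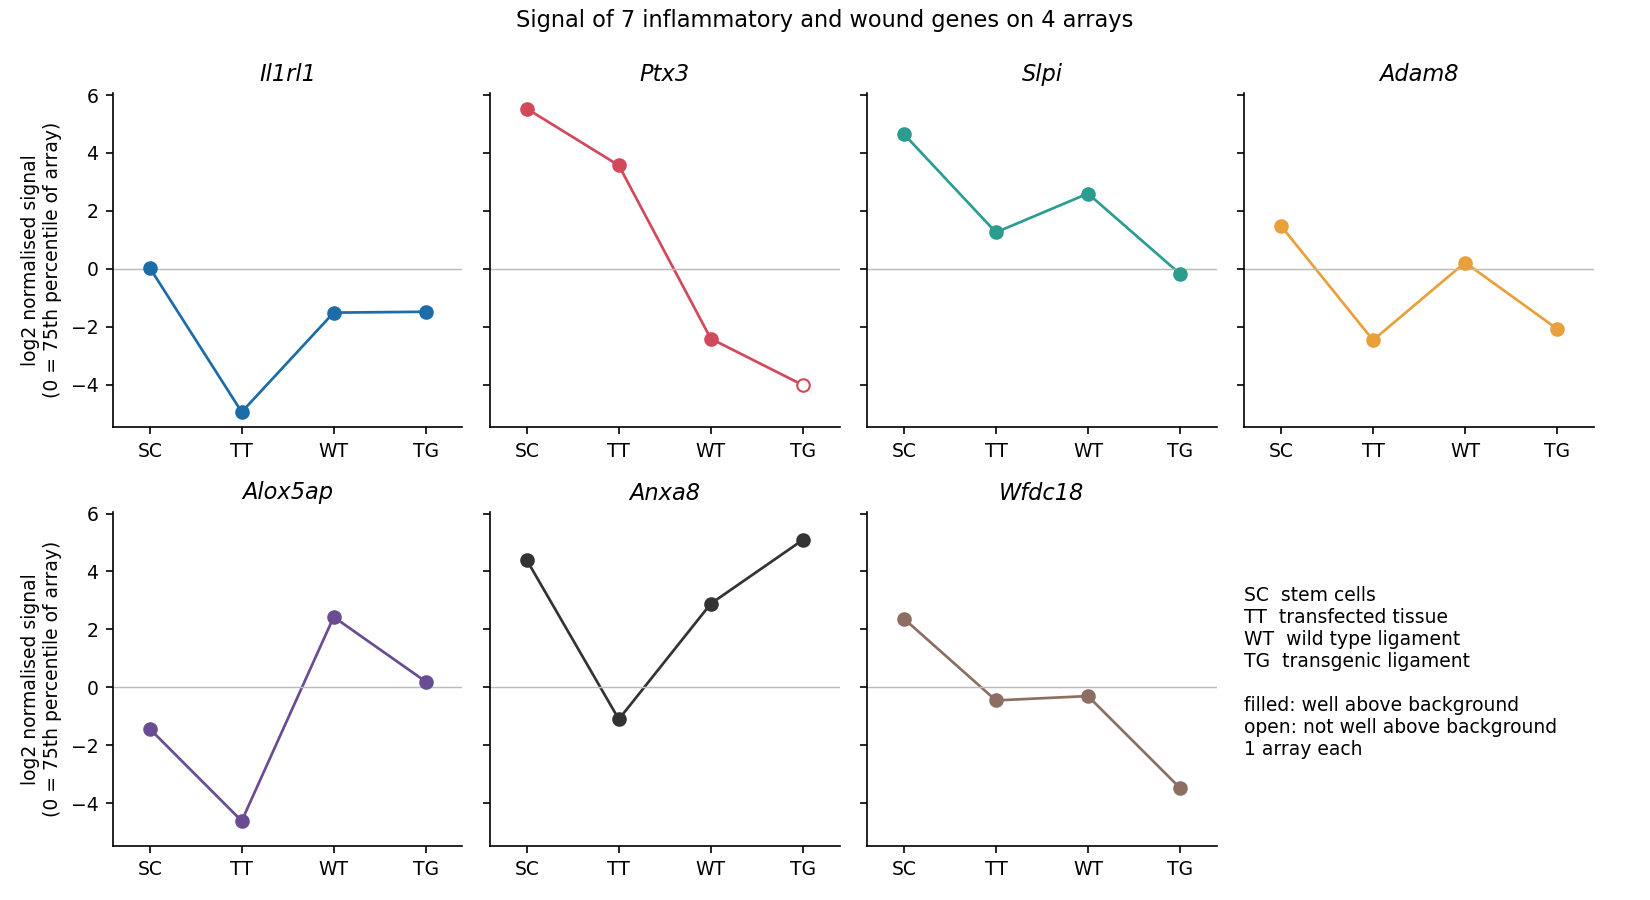
Log2 normalised signal of each gene on the 4 arrays, where 0 is the array's 75th percentile, filled points are well above background and open points are not; lines join 1 gene's values and mark no time course. The transfected tissue is below stem cells in every panel, and Alox5ap, with -1.43 in stem cells and 2.43 in wild type ligament, is the panel in which both ligaments stand above stem cells.

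Across the 7 genes, the transfected tissue was lower than stem cells in 7 of 7, with a median log2 difference of -3.39 beside -0.07 over all genes. Of 17913 genes compared there, 13.0% were lower and 11.1% higher, 24.2% in either direction; these genes were picked on that comparison, so nothing is read from the count. Ranked from the lowest difference, Anxa8 was at place 1, Il1rl1 at 4, Adam8 at 20, Slpi at 59, Alox5ap at 93, Wfdc18 at 179 and Ptx3 at 479 of 15803.

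In wild type ligament 6 of 7 were lower than in stem cells and 1 higher, with 21.8% of 18604 genes lower, 33.7% higher and 55.6% in either direction. In transgenic ligament 5 were lower, 1 higher and Anxa8 within 2-fold, with 21.8% of 18946 genes lower, 35.4% higher and 57.2% in either direction. These counts also follow from the choice. Between the transfected tissue and wild type ligament, which share their arrays with the comparisons used for the choice, 5 were lower, 1 higher and Wfdc18 within 2-fold, with 35.4% of 18474 genes lower, 20.7% higher and 56.1% in either direction. The lower genes ran from Slpi, 2.54-fold, through Adam8, 6.43-fold, Il1rl1, 10.8-fold, and Anxa8, 15.9-fold, to Alox5ap, 131-fold. The value of Il1rl1 is that of the downstream variant 1 probe. Its secreted-form probe was not lower in the transfected tissue: it read -4.62 there and -5.74, not well above background, in wild type ligament, which gave no fold. Ptx3 was 63.1-fold higher. With normexp correction the log2 difference of Alox5ap became -6.09 in place of -7.04 and that of Ptx3 4.94 in place of 5.98.

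**Figure D3:**
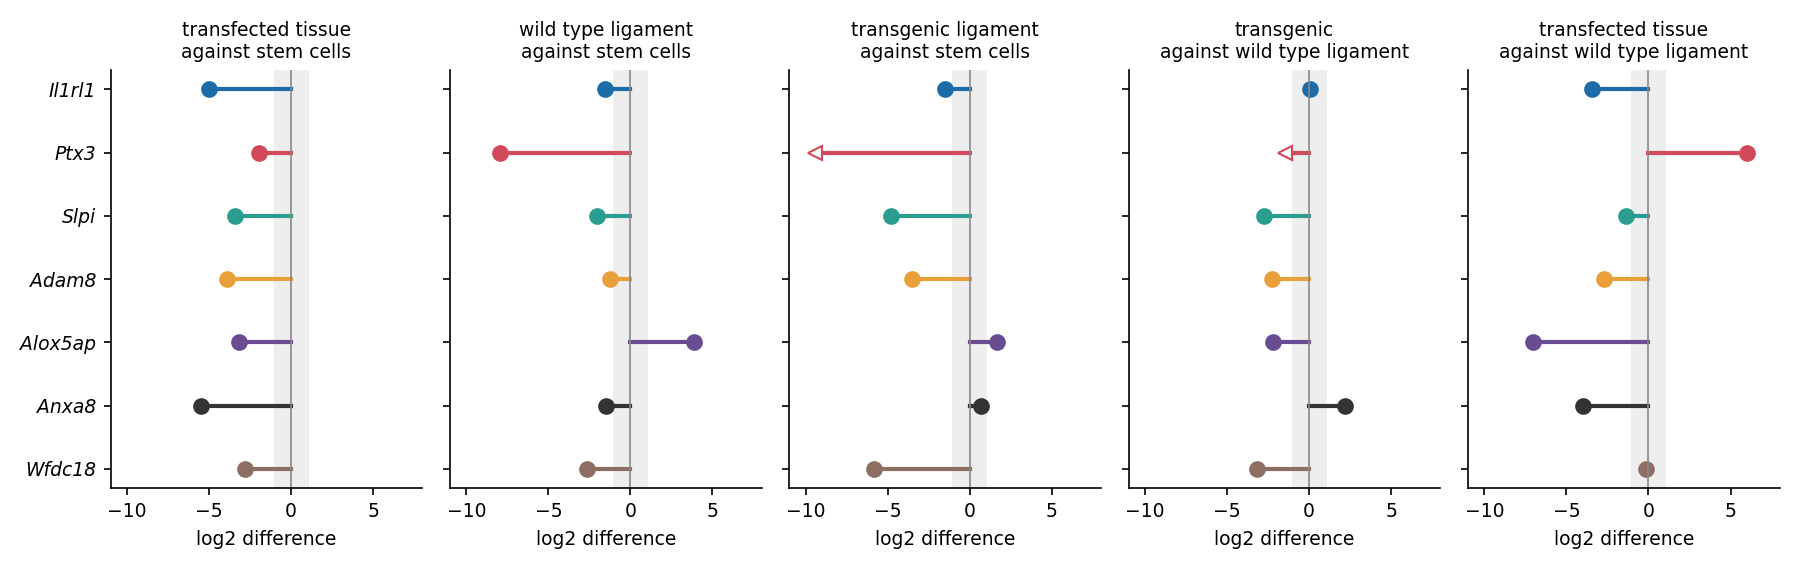
Log2 difference of each gene in 5 comparisons, with filled circles measured on both arrays, open triangles bounds, and the grey band the range within 2-fold. All 7 genes lie left of the band in the transfected tissue against stem cells, and in transgenic against wild type ligament 5 lie left of it, Il1rl1 lies at 0.03 and Anxa8 at 2.21.

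Transgenic against wild type ligament was not used to choose the genes, although both arrays entered the choice through the stem cell comparison. Here 5 of 7 genes were lower, 1 was higher and 1 was within 2-fold, beside 6.80% lower, 6.10% higher and 12.9% in either direction among 16945 genes. Wfdc18 was 9.01-fold lower, Slpi 6.84-fold, Adam8 4.91-fold and Alox5ap 4.67-fold, and Ptx3 at least 2.81-fold. Anxa8 was higher, 4.61-fold on the repeated probe and 3.32-fold on the second, and Il1rl1 differed by 0.03, below the spot noise of 0.15. Ranked from the lowest of 14555 genes measured on both arrays, Wfdc18 was at place 16, Slpi at 29, Adam8 at 69 and Alox5ap at 74. The dimmer genes depended most on the processing: normexp correction gave -1.74 in place of -3.17 for Wfdc18, -1.60 in place of -2.29 for Adam8 and -0.64 in place of -1.49 for Ptx3, which is then within 2-fold.

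Neutrophil markers were also lower in transgenic than in wild type ligament. All 14 were well above background in both ligaments, their summed signal was 1273 in wild type and 483.7 in transgenic ligament in units of the array's 75th percentile, and 12 of 14 were lower in transgenic ligament, with a median of -2.36. In bulk tissue, fewer cells of a type and less RNA per cell cannot be told apart. Of the lower genes, Slpi, Wfdc18, Adam8 and Ptx3 were highest in stem cells, where the neutrophil sum was 33.4. Alox5ap was highest in wild type ligament. Macrophage markers summed to 40.98 and 21.57, with 3 of 12 lower (median -0.29) beside 6.80% of all genes. Lyz2 (-2.70) and Tyrobp (-1.65) were among the lower ones, whereas Adgre1 (-0.43), Csf1r (-0.26), Cd68 (-0.11) and Mrc1 (0.06) were within 2-fold. Mast cell markers summed to 5.75 and 1.94, with 3 of 9 lower (median -0.41), namely Tpsab1, Hdc and Mcpt8. Kit (0.62), Tpsb2 (0.16), Mcpt4 (-0.07) and Cma1 (-0.41) were within 2-fold, so the sum says little of these. Epidermal markers summed to 54.19 in wild type and 216.7 in transgenic ligament, with 10 of 12 higher beside 6.10% of all genes. Among them Lor, a protein of the cornified layer, differed by 2.98. Anxa8 was also higher in transgenic ligament, but it read 4.39 in stem cells, where the epidermal sum was 3.385. Tendon and ligament markers summed to 386.4 and 510.4, with 6 of 10 higher beside the same 6.10%. Markers of dividing cells had 0 of 9 higher and 4 lower (median -0.94), beside 6.10% and 6.80% of all genes. The part of these cell types and of cell division in the values of the 7 genes was not tested.

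Between the transfected tissue and stem cells, single blood cell markers differed in both directions. Over all genes, 11.1% were higher and 13.0% lower in this comparison. The neutrophil sum was 33.4 in stem cells and 30.9 in the transfected tissue, with 7 and 8 of 14 markers well above background, and S100a8, S100a9, Ngp, Mpo, Retnlg and Cxcr2 were not well above background on either array. Most of that sum was Csf3r, at 4.60 and 4.39, and Itgam, at 2.94 and 3.08, so it says little of the dimmer markers. Of 8 neutrophil markers with a value 0 were higher and 1 lower, Ltf, 4.74-fold. The macrophage sum was 2.47 and 2.00, with 2 of 9 higher and 3 lower: C1qa at least 6.28-fold, Lyz2 4.42-fold and Csf1r 2.18-fold. The mast cell sum was 0.79 and 0.65, with 0 of 3 higher and 1 lower, Hdc, 2.70-fold. Among 4 lymphoid markers with a value 1 was higher and 1 lower, the leukocyte marker Ptprc, at least 3.95-fold. Markers of dividing cells differed more, from a sum of 148.0 in stem cells to 14.63 in the transfected tissue, with 9 of 10 lower and a median of -3.22, and read 14.52 and 8.97 in wild type and transgenic ligament. Mesenchymal stromal markers summed to 146.3 and 90.35, with 4 of 9 lower. The part of these cell types and of cell division in the lower values of the 7 genes was not tested.

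**Figure D4:**
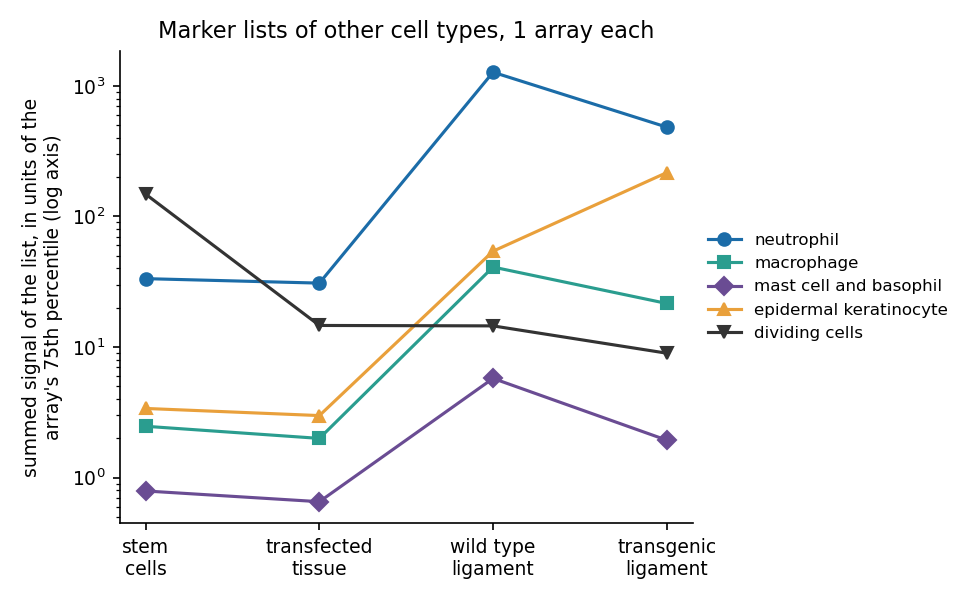
Summed signal of each marker list on the 4 arrays, in units of the array's 75th percentile on a log axis; lines join 1 list and mark no time course. The neutrophil list is at 33.4 and 30.9 in the cell-derived samples against 1273 and 483.7 in the ligaments, and the list of dividing cells is at 148.0 in stem cells against 14.63 in the transfected tissue.

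The wider lists were used to see what else stood lower. The wound repair and plasminogen list of 20 genes had 17 values between the transfected tissue and stem cells, of which 0 were higher and 8 lower (median -0.99). Plaur, the urokinase receptor, was 8.70-fold and Plau, urokinase, 4.73-fold lower; Tnc, a matrix glycoprotein of healing tissue, was at least 4.84-fold lower. In the list of NF-kappaB targets and acute phase genes, 21 of 29 had a value, of which 6 were higher and 1 lower (median 0.37), beside 11.1% higher and 13.0% lower over all genes. Saa3, an acute phase protein, was at least 4.54-fold higher, Cxcl5, a neutrophil chemokine, 3.18-fold higher, and Il6, an inflammatory cytokine, 4.11-fold lower. Granule serine proteases had 2 values of 9 genes, and neither was past 2-fold.

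In transgenic against wild type ligament, the granule serine proteases had 0 of 8 higher and 4 lower (median -1.09), beside 6.10% and 6.80% over all genes. Tpsab1, a mast cell tryptase, was at least 28.9-fold and Elane 2.62-fold lower. From the same list, Tpsb2, Mcpt4 and Cma1 differed by 0.16, -0.07 and -0.41. In the leukotriene and prostaglandin list 1 of 20 was higher and 5 lower, among them Tbxas1, the thromboxane synthase, 3.34-fold, Ltb4r1, a leukotriene B4 receptor, 3.02-fold, and Alox5, 2.81-fold. Alox5 and its helper Alox5ap were thus both lower, while Ltc4s differed by -0.07 and Lta4h by -0.54. Among NF-kappaB targets and acute phase genes 0 of 15 were higher and 3 lower, with Lcn2, a siderophore-binding protein that is also in the neutrophil list, 6.28-fold lower.

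The remaining lists had between 0 and 3 genes past 2-fold each, beside 12.9% of all genes in either direction in this comparison. The interleukin 1 family had 1 of 12 higher and 1 lower: Il1r1 was 2.81-fold higher and Il1b at least 2.33-fold lower, with Il33 at 0.37 and Myd88 at 0.11. Annexins had 2 of 14 higher, Anxa9 3.32-fold and Anxa4 2.42-fold, and 0 lower. ADAM proteases had 0 of 11 higher and 1 lower. The 7 values each of the WAP list and of the list of pentraxins and Ptx3 partners held none past 2-fold. In the wound list 1 of 15 was higher and 2 lower, with Plaur 4.57-fold and Plau 2.29-fold lower.

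**Figure D5:**
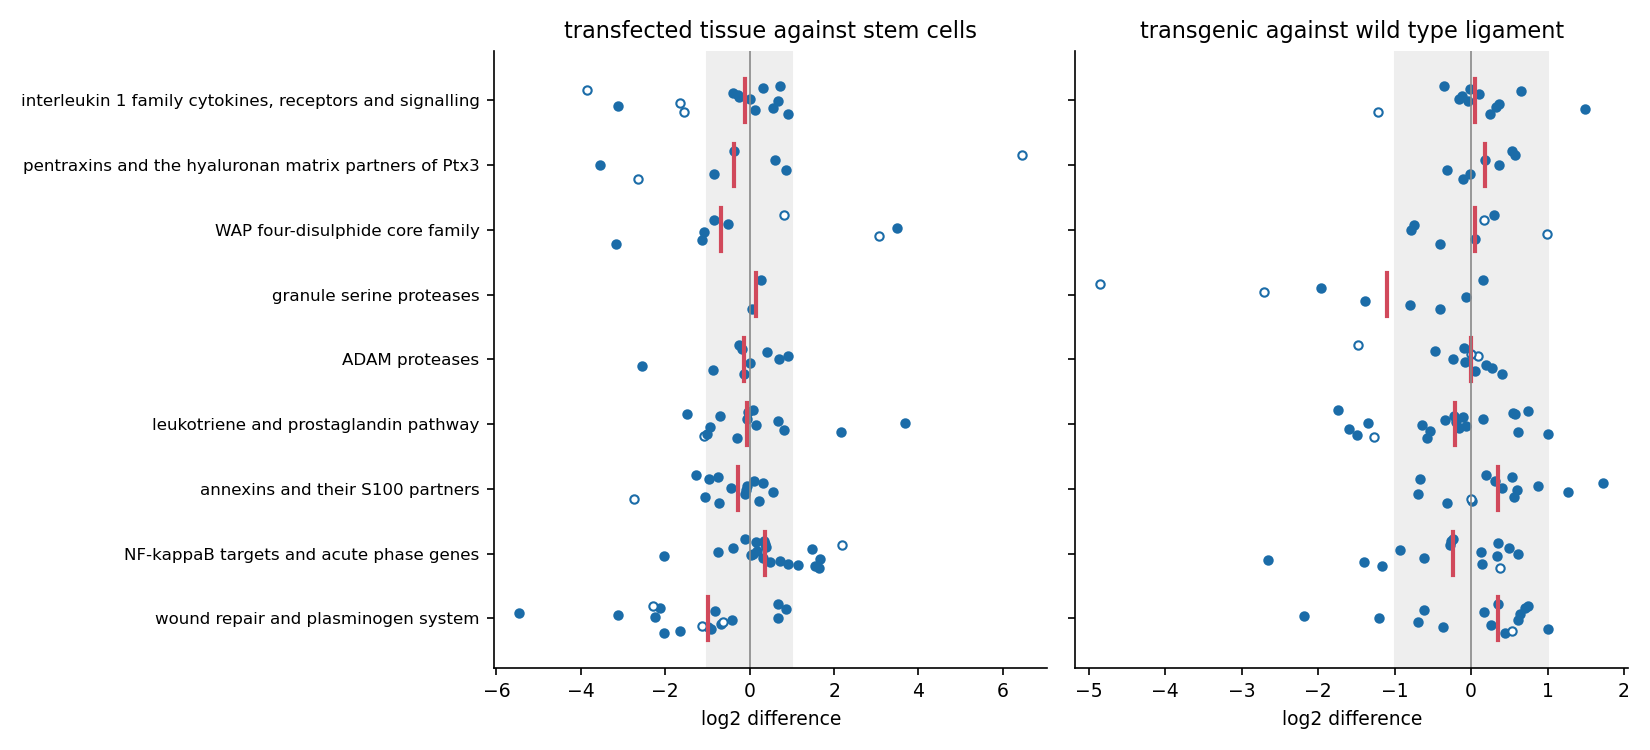
Log2 difference of every gene with a value in the 9 pathway lists, in the transfected tissue against stem cells and in transgenic against wild type ligament; open points are bounds, red bars are medians and the grey band is the range within 2-fold. The wound repair list has its median at -0.99 in the former panel, and the granule serine protease list at -1.09 in the latter.

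Genes with a like pattern were found as those with the smallest Euclidean distance between 4-array profiles, each profile centred on its own mean, among genes with the same marks of well above background (10568 candidates, and 88 for Ptx3). Plaur was nearest to Slpi, at 0.51 log2 units, and read 1.87, -1.25, -0.58 and -2.77 in the order of stem cells, transfected tissue, wild type and transgenic ligament. Lockd and Cenpa came next to Slpi, at 0.93 and 0.94. Wfdc18 was nearest to Ube2c at 0.71, a ubiquitin-conjugating enzyme of mitosis, followed by Plaur and Cenpa at 1.13. Il1rl1 was nearest to Fxyd5 at 0.82, which read 3.25, -0.85, 1.76 and 1.55, followed by Ankrd37 at 0.95 and Plb1 at 1.09. Adam8 was nearest to the histone gene H1f5 at 0.78 and to Car9, a carbonic anhydrase, at 0.81, followed by H2ac4 at 0.94.

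Alox5ap was nearest to Lrg1 at 0.99 and to the macrophage and neutrophil lysozyme gene Lyz2 at 1.09, followed by Ifitm6 at 1.17. Anxa8 had no close neighbour, with Fam199x at 1.80, Ankrd37 at 1.82 and Klhl13 at 1.90. Ptx3 had the fewest candidates and the farthest neighbour, Glipr2 at 2.67, followed by Top2a and Cdk1 at 3.33 and 3.45. With 4 arrays, a short distance describes these samples only.

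Promoter sequence was available for 6 of the 7 genes (RefSeq, GRCm38.p6), in 7 windows since Il1rl1 has 2 starts. The 250 bases before each start were searched on both strands for 7 motifs. TTNNGCAA, a core of the C/EBP site, was in 4 of 7 windows, beside 9.56% of 32851 windows of the same length. AGATAA, which GATA factors bind, was in 2 windows, both of Il1rl1, beside 9.99% of all, TATAAA in 1 (Wfdc18), beside 12.4%, and CACGTG (E-box) in 1 (Slpi), beside 6.02%. TGANTCA (AP-1), TTCNNNGAA (STAT) and the NF-kappaB motif were in 0, beside 6.75%, 7.02% and 7.25%. No C/EBP match overlapped another motif.

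The windows with TTNNGCAA are shown because this was the motif held by most of the genes; it was singled out after the counts were seen, and a match describes letters and no binding. Each stretch is 60 bases in the direction of the gene, with the match in capitals, on either strand. The match begins 34 bases before the start in Il1rl1 (chr1:40429510-40429569, plus strand), 57 in Ptx3 (chr3:66219804-66219863, plus strand), 219 in Adam8 (chr7:139992748-139992807, minus strand) and 241 in Slpi (chr2:164356698-164356757, minus strand). The window of the other Il1rl1 start held no such match, and which start was used in these samples was not tested.
Il1rl1: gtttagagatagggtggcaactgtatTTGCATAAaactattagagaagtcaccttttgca
Ptx3: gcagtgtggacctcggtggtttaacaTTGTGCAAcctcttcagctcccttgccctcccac
Adam8: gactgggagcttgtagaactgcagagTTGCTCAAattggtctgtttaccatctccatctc
Slpi: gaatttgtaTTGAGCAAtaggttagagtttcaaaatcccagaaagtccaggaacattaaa
These 4 genes were lower in the transfected tissue than in stem cells by 31.5-fold, 3.88-fold, 15.3-fold and 10.5-fold in the order printed. Wfdc18 and Anxa8, without a match in the window, were 7.04-fold and 45.0-fold lower.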

How the data were processed

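Per the file headers, the deposited scanner files give linear spot intensity after background subtraction and detrending by Feature Extraction 10.7.1.1 (the submitters' processing notes name 9.5.1.1). Arrays were not normalized against each other. The authors' deposited value table, also linear intensity, was an alternative; its columns have nearly equal distributions, and its normalization is not stated. Its probes were matched by probe name.

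Control spots were dropped, as were 155 to 281 outlier spots per array, and none was saturated. The log2 intensity was centred on the 75th percentile of its array and averaged over the spots of a probe, and the probe brightest on average across arrays stood for its gene. Of 39429 probes, 26761 were named through RefSeq accessions and the rest by the files' symbols. The number of arrays, 1 per group, limits the precision of every value, and no test was possible. The 5 comparisons, 18 lists (9 of pathways, 9 of cell markers) and the 7 genes were chosen with earlier results of these data known. Named genes were all 7 on every probe, their fixed direct partners and up to 3 list genes per direction with the largest difference. The 3 genes of nearest pattern and some, but not all, of the leading markers were also named. Il18rap, other markers, chromosomal neighbours and list genes in other comparisons were named after their values were seen. The 8 alternatives included normexp with offset 50 (limma 3.58.1, R 4.3.3) and quantile normalization. Scripts ran in Python 3.11.15 and were tested on simulated data. A gene of the wound repair list that the naming rule would select is not reported here.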

Additional observations from a re-analysis of the deposited data

How the results depend on the processing

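Under 8 alternatives the count of the 7 genes past 2-fold was 7 in both the transfected tissue and wild type ligament when set against stem cells. It was 6 when the transfected tissue was set against wild type ligament. It was 6 or 5 in transgenic ligament against stem cells and against wild type ligament. No gene changed direction past 2-fold, and 1 value changed its side of 2-fold, that of Ptx3 in transgenic against wild type ligament with normexp correction (-0.64). Beyond the values given with each gene, quantile normalization gave -10.36 for Ptx3 and -6.50 for Wfdc18 in transgenic ligament against stem cells, and -2.62 for Il1rl1, -6.35 for Alox5ap and 6.67 for Ptx3 in the transfected tissue against wild type ligament. The deposited value table gave -4.00 for Wfdc18 in transgenic against wild type ligament, -6.73 for Wfdc18 and -10.39 for Ptx3 in transgenic ligament against stem cells, and -2.84 for Il1rl1 and 6.69 for Ptx3 in the transfected tissue against wild type ligament. Counts over all genes moved more. Lower and higher genes were 2332 and 1995 in the transfected tissue against stem cells, 2144 and 1089 with normexp, 3521 and 2995 with no filter on dim probes, and 1943 and 2447 when centred on probes detected on all arrays. In transgenic against wild type ligament 1153 and 1034 became 571 and 408 with normexp and 2087 and 2153 with no filter. Quantile normalization turned 4064 and 6272 into 5305 and 5282 for wild type ligament and 4133 and 6703 into 5555 and 5280 for transgenic ligament, each against stem cells, and 6533 and 3828 into 5106 and 5176 in the transfected tissue against wild type ligament; the median of genes measured on both arrays moved from 0.27 to -0.09, 0.21 to -0.14 and -0.37 to 0.12. No paired analysis was possible because each group has 1 array. Signal over background limits the dim values, among them Ptx3 in both ligaments, Wfdc18 and Adam8 in transgenic ligament, and Il1rl1 and Alox5ap in the transfected tissue.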
